A study of Mus musculus with 10 samples.

Results

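The miRNAs described here are those with the hairpin numbers miR-297, miR-466, miR-467 and miR-669, which in the mouse come largely from 1 intronic cluster within the gene Sfmbt2. Members were the array probes with a name of one of these numbers followed by a letter, on any arm, and 43 of 655 probes met this. They comprised 4 probes of miR-297, 16 of miR-466, 11 of miR-467 and 12 of miR-669, and carried 50 different miRNA names. The samples were livers, 5 of LivPGC-1α and 5 of wild-type (WT) mice, all of the FVB/N strain, aged 4 months and, by the study's account, fasted overnight. LivPGC-1α mice carry a human PGC-1α coding sequence under the promoter of the Apolipoprotein E gene, introduced by injection into fertilized FVB/N eggs, and the sources used here do not give the number of founder lines. WT mice carry no transgene. One array was hybridised per sample on 1 chip, and the labels number 5 samples per genotype without saying that each came from a separate mouse, so that p-values measure the spread between these samples. WT arrays held the first 5 positions of the chip and LivPGC-1α arrays the last 5, and position and genotype cannot be told apart.

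A miRNA is cut from a hairpin precursor, either arm of which (5p or 3p, the less abundant one marked with a star in older names) can be loaded onto an Argonaute protein, and bases 2 to 8 of the mature strand, the seed, carry most of the recognition of target mRNAs. Sfmbt2 encodes a Polycomb group protein, and in the mouse it is imprinted and transcribed from the paternal copy in extraembryonic tissue. The cluster in its intron is specific to rodents, arose by repeated tandem duplication, and is known mainly for its expression in embryonic stem cells and the placenta, where its loss disturbs placental growth. Its members are rich in repeats of U with G or of C with A, so that different miRNAs of the cluster have closely similar sequences.

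The gene table of the GRCm38.p6 assembly (RefSeq) held 82 hairpins with these 4 numbers. Of them 72 lay within the limits of Sfmbt2, comprising 5 of miR-297, 24 of miR-466, 14 of miR-467 and 29 of miR-669, and no other gene of the table lay inside these limits. The other 10 hairpins lay on other chromosomes. For 41 of the 43 probes the table held a hairpin of the same name on each chromosome that the array's annotation gave, the exceptions being miR-297a, whose chromosome 10 had no hairpin of that name in the table, and miR-466a-5p, whose hairpin had no entry by name. The array's own annotation placed 35 of the 43 probes on chromosome 2 alone, the chromosome of Sfmbt2, and 1 probe (miR-297a) on chromosomes 2, 7 and 10. It placed 7 probes elsewhere, namely miR-466f and miR-466i on chromosome 13, miR-466j on 10, miR-466k on 3, miR-467f on 11, miR-467g on 5 and miR-467h on 9. These 7 are kept apart below. The gene table had hairpins of 6 of the 7 names outside Sfmbt2 alone. For the name miR-466f it had 4 hairpins, 3 within Sfmbt2 and 1 on chromosome 13, so that the assignment of this probe to chromosome 13 rests on the array's annotation and the probe may read copies of the cluster.

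The sequences of the 6 relatives outside Sfmbt2 are shown for the repeats they hold, and no sequence of a chromosome 2 member was examined. They are given 5′ to 3′ from RefSeq (GRCm38.p6) with the seed in capitals. Of the 50 miRNA names on the probes, 5 matched a mature entry by their exact name. A further one, miR-466i-3p, is the entry under the name miR-466i, whose arm the probe name does not state.
miR-467f: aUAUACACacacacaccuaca
miR-466i-3p: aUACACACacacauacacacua
miR-467g: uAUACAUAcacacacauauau
miR-467h: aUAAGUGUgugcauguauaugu
miR-466j: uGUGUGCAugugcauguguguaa
miR-466k: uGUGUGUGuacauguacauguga
In the same order they lie at chr11:69635419-69635439 (minus strand), chr13:17747552-17747573 (plus), chr5:34732872-34732892 (minus), chr9:115381898-115381919 (plus), chr10:60960802-60960824 (plus) and chr3:85467396-85467418 (plus). The hairpin of miR-467f lies within Fxr2, an RNA-binding protein gene of the fragile X family, that of miR-466i within Cdk13, a kinase of transcription elongation, that of miR-467g within Grk4, a receptor kinase gene, and that of miR-466k within the predicted gene Gm31419. The hairpins of miR-467h and miR-466j lie within no other gene of the table.

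Of the 6 sequences, 3 hold CACACA (miR-467f, miR-466i-3p and miR-467g) and 3 hold UGUGUG (miR-467h, miR-466j and miR-466k), its reverse complement. Among all 1679 mature miRNAs of the table, 0.715% hold CACACA and 1.67% hold UGUGUG, so that all 6 belong to the 2.38% with either motif. These are shares of the table, in which no chromosome 2 member had an entry by its exact name, and not of all mouse miRNAs. The 6 seeds all differed. One of them, that of miR-467h, was shared with another mature miRNA of the table, miR-668-5p. Since no chromosome 2 member matched an entry by its exact name, seeds shared with such members may have been missed. The most similar pairs, miR-467f with miR-466i-3p and miR-467f with miR-467g, were 5 single-base edits apart. Probes of different members may read more than 1 of these RNAs, which the distances between these 6 sequences cannot show and which was not tested.

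Between 22 and 24 of the 43 probes were detected on each LivPGC-1α array and between 23 and 29 on each WT array, with detection set at the array's own detection p of at most 0.01. The mean was 23 ± 0.71 probes (SD, n = 5) in LivPGC-1α and 25 ± 2.55 (SD, n = 5) in WT. Over all probes of the chip the mean was 442 ± 10.3 (SD, n = 5) in LivPGC-1α and 459.6 ± 23.9 (SD, n = 5) in WT. In total, 20 member probes were detected on all 10 arrays, 12 on some and 11 on none. The miRNA that dominates hepatocytes, miR-122, averaged a normalized signal of 53839 in LivPGC-1α and 53535 in WT, and the labelled tissue thus carried its defining marker. The summed signal of 4 striated muscle probes was between 4250 and 4554 on LivPGC-1α arrays and between 3924 and 85234 on WT arrays, with the high value on WT 1. Its part in the results below was not tested beyond a fit without WT 1. In bulk liver, fewer cells of a type and less RNA per cell cannot be told apart.

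**Figure D1:**
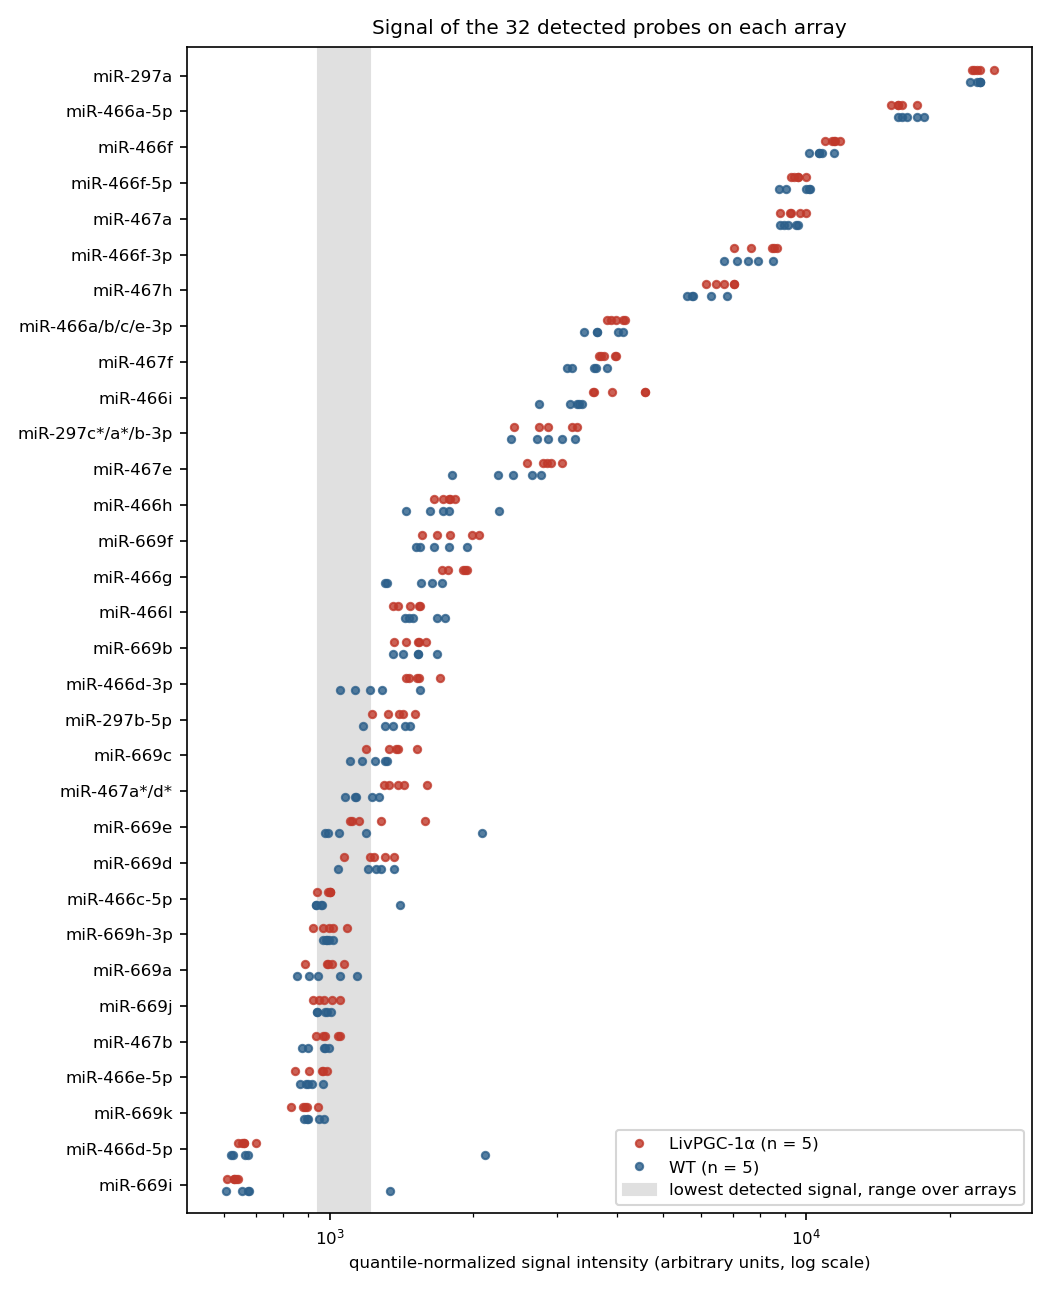
Quantile-normalized signal (x axis, log scale) of the 32 probes detected on at least 1 array, with 1 row per probe and 1 point per array, LivPGC-1α above WT in each row. The grey band spans the lowest detected signal of the 10 arrays (947.5 to 1217.9), and single points far to the right of their row, for miR-466c-5p, miR-466d-5p, miR-669e and miR-669i, are all WT 5.

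The detected members covered a wide range of signal. The intensity of a bead depends on the probe as well as on the RNA, so the signals of different probes are given as values and not as relative amounts. miR-297a had the highest mean signal of the family, ranking 87th of the 655 probes. Its signal was 24698, 22474, 22295, 22746 and 23074 on LivPGC-1α arrays 1 to 5, against 23074, 22746, 23074, 23074 and 22042 on WT arrays 1 to 5. The groups overlapped, and the log2 change was 0.02 ± 0.03 (SE) (limma, adjusted p = 0.930). miR-466a-5p had the highest mean among miR-466 probes, with 15064, 15588, 15588, 15855 and 17084 in LivPGC-1α and 16219, 17084, 17639, 15588 and 15855 in WT. Its groups also overlapped (log2 change −0.06 ± 0.05 SE, limma, adjusted p = 0.625). miR-467a, at 9392 ± 445 (SD, n = 5) in LivPGC-1α and 9214 ± 344 (SD, n = 5) in WT, was the highest of miR-467, and its log2 change was 0.03. In miR-669 the highest mean belonged to miR-669f, at 1816 ± 208 (SD, n = 5) in LivPGC-1α and 1690.2 ± 173 (SD, n = 5) in WT, with a log2 change of 0.10 (limma, adjusted p = 0.677).

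Detection differed between the hairpin numbers. Of the miR-297 probes 3 of 4 were detected on all 10 arrays, of miR-466 10 of 16, of miR-467 4 of 11 and of miR-669 3 of 12. Another 3 probes of miR-466, 2 of miR-467 and 7 of miR-669 were detected on some arrays only. The 11 probes detected on none were miR-297c, miR-466b-5p, miR-466j, miR-466k, miR-467b*, miR-467c, miR-467d, miR-467e*, miR-467g, miR-669g and miR-669h-5p. They include the lowest mean of each hairpin number. Of the 7 probes that the array's annotation assigned to other chromosomes, those detected were miR-466f, miR-466i, miR-467f and miR-467h, each on all 10 arrays, and the other 3 were not detected on any.

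Both arms of a hairpin could be read for several members, and they often differed in detection. miR-466d-3p was detected on all 10 arrays, whereas miR-466d-5p was detected on WT 5 alone. miR-467a and miR-467e were detected on all 10 arrays, the shared probe of the stars of miR-467a and miR-467d on 9, and miR-467e* on none. For miR-669h the 3p arm was detected on 2 WT arrays and no LivPGC-1α array, and the 5p arm on none. Both arms of miR-466f were detected throughout, the 5p arm at 9577 ± 254 (SD, n = 5) in LivPGC-1α and 9615 ± 661 (SD, n = 5) in WT and the 3p arm at 8078 ± 701 (SD, n = 5) in LivPGC-1α and 7563 ± 695 (SD, n = 5) in WT. miR-467b, reported in mouse macrophages to target the mRNA of lipoprotein lipase, was detected on 1 WT array, and its star on none. Over the whole family, all 4 probes with a 3p name, 6 of 8 with a 5p name, 20 of 27 with no arm in the name and 1 of 3 star probes were detected on at least 1 array, as was the probe of mixed star and 3p names.

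A probe with several names reads several miRNAs at once, and 3 of the 43 were of this kind. The first listed miR-466a-3p, miR-466b-3p, miR-466c-3p, miR-466e-3p and miR-466b-3-3p, in 17 entries on chromosome 2. Its signal was 3884, 3987, 3814, 4169 and 4122 in LivPGC-1α, against 3642, 4122, 3642, 4018 and 3411 in WT, and the groups overlapped (log2 change 0.09 ± 0.06 SE, limma, adjusted p = 0.511). In RefSeq 8 hairpin copies of miR-466b alone lie within Sfmbt2, so this value cannot be assigned to 1 of them. The second probe held miR-297c*, miR-297a* and miR-297b-3p. It read 2744, 2878, 2442, 3304 and 3231 in LivPGC-1α and 2878, 3277, 2726, 3071 and 2406 in WT, again with overlap (log2 change 0.02 ± 0.10 SE, limma, adjusted p = 0.964). The third, of miR-467a* and miR-467d*, is described below. Copies are also shared by single names, since miR-467a had 10 hairpin copies and miR-669a 12 within Sfmbt2.

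The comparison of LivPGC-1α with WT asks whether the miRNAs of this family change when PGC-1α, a transcriptional coactivator of mitochondrial and gluconeogenic genes, is overexpressed in the liver. None of the 32 detected members passed at an adjusted p under 0.05 (limma, adjusted over 513 tested probes), and 0.39% of all tested probes did. The lowest adjusted p of a member was 0.105. At an unadjusted p under 0.05, 8 of 32 members were higher in LivPGC-1α, against 10.5% of all tested probes, and 0 were lower, against 3.9%. Above 0 lay 24 of 32 members, against 56.9% of all tested probes, and the median log2 change was 0.029 for the members and 0.012 for all tested probes. The split depended on the scaling, for at an unadjusted p under 0.05 the members were 2 higher and 2 lower with each array scaled to the 75th percentile of the probes detected on all arrays and 5 higher and 2 lower with cyclic loess. Without normalization they were 3 higher and 0 lower. With the 75th percentile of all probes, 8 were higher and 0 lower, and 5 of these passed at an adjusted p under 0.05, where 80 of the 513 tested probes did. In the order of these 4 scalings, 2.14%, 6.82%, 2.92% and 30.4% of all tested probes were higher at an unadjusted p under 0.05. Over all tested probes, the higher share of those at an unadjusted p under 0.05 was 73% with quantile normalization and between 11.3% and 92.9% with these other scalings. Single arrays also moved the count, which was 4 without LivPGC-1α 2, LivPGC-1α 3 or WT 3 and 5 without LivPGC-1α 4 or WT 5. Without WT 1, the array with the high striated muscle signal, it was 8, all higher, beside 8.77% of all tested probes higher. The median log2 change of the members in that fit was 0.026.

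**Figure D2:**
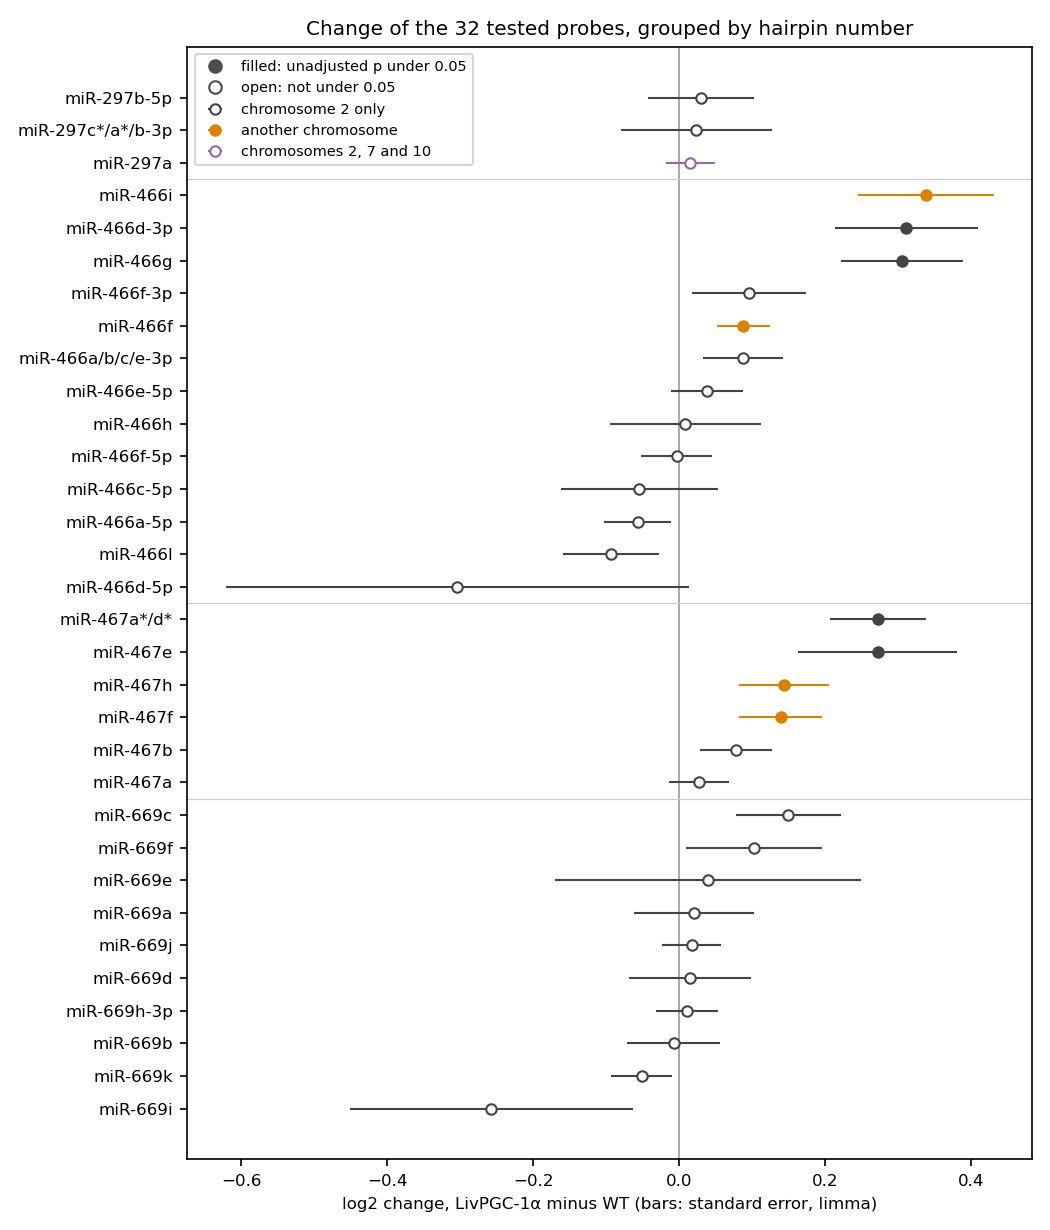
Log2 change, LivPGC-1α minus WT (x axis), of the 32 tested probes, with bars for the standard error in limma, in 4 blocks by hairpin number. Filled points had an unadjusted p under 0.05 and all 8 lie above 0, in the miR-466 and miR-467 blocks, and orange points are probes assigned to chromosomes other than 2.

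The 8 members were miR-466d-3p, miR-466f, miR-466g and miR-466i, and miR-467e, miR-467f, miR-467h and the probe of miR-467a* and miR-467d*. That is 4 of 13 tested miR-466 probes and 4 of 6 tested miR-467 probes, while 0 of 3 miR-297 and 0 of 10 miR-669 probes were among them. The median log2 change was 0.14 for miR-467, 0.038 for miR-466, 0.023 for miR-297 and 0.016 for miR-669. Differences between the hairpin numbers were not tested.

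The star probe of miR-467a and miR-467d had the smallest p of the family. Its signal was 1331, 1394, 1604, 1434 and 1300.5 on the LivPGC-1α arrays, against 1226, 1132, 1137, 1270.1 and 1078 on the WT arrays. All LivPGC-1α values lay above all WT values, the highest being LivPGC-1α 3 and the lowest WT 5. The means were 1413 ± 119 (SD, n = 5) in LivPGC-1α and 1169 ± 77.7 (SD, n = 5) in WT, which gave a log2 change of 0.27 ± 0.07 (SE) that did not pass adjustment (limma, adjusted p = 0.105). It was detected on all LivPGC-1α arrays and on 4 of 5 WT arrays, and so lay close to the detection limit. Of the other strands, miR-467a, differed by 0.03, and miR-467d was not detected on any array.

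miR-466i, on chromosome 13, was the other member without overlap between the groups. It read 3585, 3567, 4593, 4593 and 3919 in LivPGC-1α, against 3198, 3304, 3390.2, 3333 and 2744 in WT. Arrays 3 and 4 of LivPGC-1α were the high ones and WT 5 the low one. The log2 change was 0.34 ± 0.09 (SE), the largest increase in the family (limma, adjusted p = 0.122). Groups failed to overlap with LivPGC-1α above WT in 3.9% of all tested probes, beside these 2 of 32 members, and with LivPGC-1α below WT in 0.975%, beside 0 members.

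miR-466g and miR-466d-3p are both on chromosome 2, and neither passed adjustment. miR-466g was at 1722, 1909, 1928, 1769.8 and 1940.5 in LivPGC-1α and at 1555, 1722, 1317, 1638 and 1308 in WT, the lowest LivPGC-1α value equalling the highest WT value. Its low values in WT were those of WT 3 and WT 5, and the log2 change was 0.30 ± 0.08 (SE) (limma, adjusted p = 0.122). miR-466d-3p was at 1465, 1706, 1544, 1526 and 1445 in LivPGC-1α and at 1132, 1289, 1051, 1551 and 1218 in WT. WT 4 lay among the LivPGC-1α values, and the other 4 WT values lay below them all. Its log2 change was 0.31 ± 0.10 (SE) (limma, adjusted p = 0.165).

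miR-467e had a log2 change of 0.27 ± 0.11 (SE) (limma, adjusted p = 0.312), with 2798, 2859.7, 2919, 3071 and 2597 in LivPGC-1α and 2664, 2422, 2251, 2775 and 1803 in WT. WT 1 and WT 4 lay within the range of the LivPGC-1α values, and WT 5 was the lowest array. Without WT 5 the change of miR-467e was 0.18.

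The remaining 3 of the 8 were assigned to other chromosomes by the array's annotation, miR-466f with the limit given above, and had smaller differences. miR-467f read 3681, 3766, 3987, 3960.5 and 3712 in LivPGC-1α and 3613, 3585, 3142, 3814 and 3231 in WT (log2 change 0.14 ± 0.06 SE, limma, adjusted p = 0.316). miR-467h read 6149, 6449, 7048, 6713 and 7048 in LivPGC-1α and 6300.3, 6801, 5793, 5630.3 and 5749.7 in WT (0.14 ± 0.06 SE, adjusted p = 0.327 in limma). miR-466f read 10942, 11318, 11421, 11489.9 and 11776 in LivPGC-1α and 10637, 11421, 10808, 10637 and 10105 in WT (0.09 ± 0.04 SE, limma, adjusted p = 0.322). In each of the 3 the groups overlapped, through WT 4 in miR-467f, WT 1 and WT 2 in miR-467h and WT 2 in miR-466f. Scaling to the 75th percentile of the probes detected on all arrays left changes of −0.0042 for miR-467f, 0.012 for miR-467h and 0.0047 for miR-466f, against 0.22 for miR-466i.

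**Figure D3:**
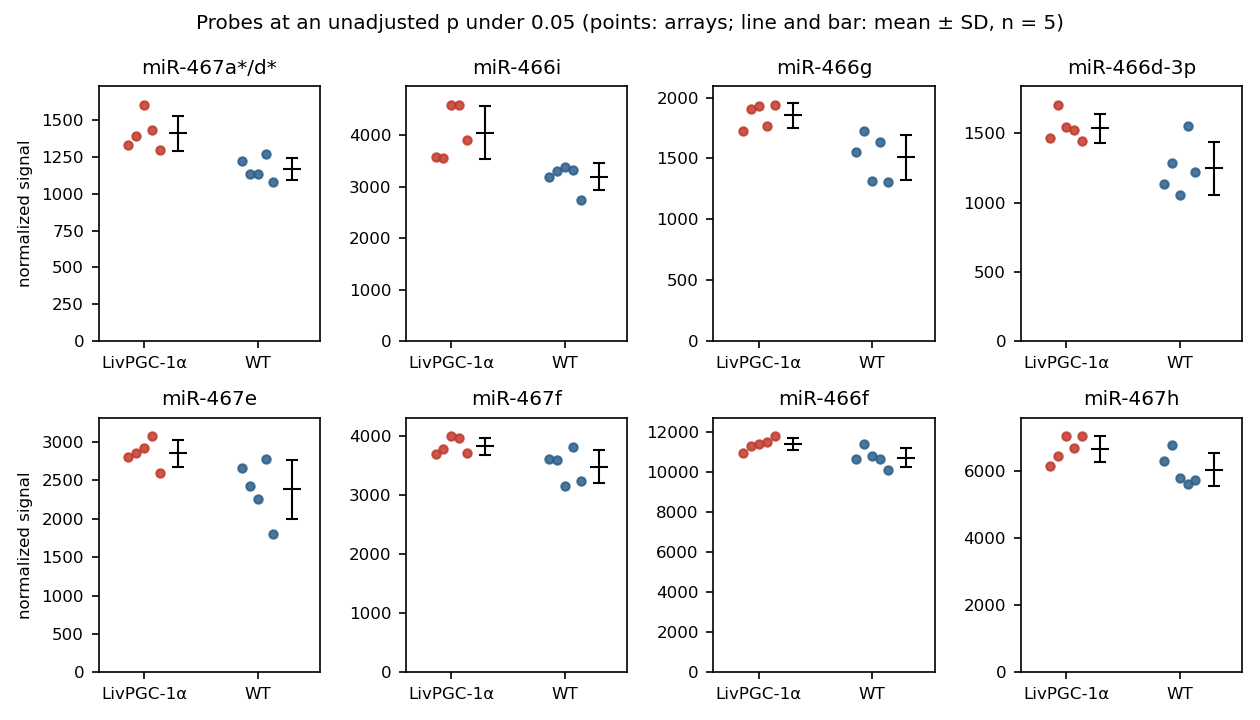
Normalized signal (y axes from 0) of the 8 probes at an unadjusted p under 0.05, with 1 point per array, LivPGC-1α left of WT, and the mean ± SD (n = 5) beside each group. The groups are separate for miR-467a*/d* and miR-466i, touch for miR-466g and overlap in the other 5, and WT 5 is the lowest of all 10 arrays for miR-467a*/d*, miR-466i, miR-466g, miR-467e and miR-466f.

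Split by the chromosome of the array's annotation, the 4 detected probes assigned to other chromosomes were all higher at an unadjusted p under 0.05, and their median log2 change was 0.14. Without miR-466f, whose name also has copies within Sfmbt2, 3 of 3 were higher with a median of 0.14. This count depended on the setting. It was 0 of 4 with the 75th percentile of the probes detected on all arrays, without normalization and with the term for chip position. It was 2 of 4 (miR-466f and miR-466i) with the 75th percentile of all probes. In the same order, 2.14%, 2.92%, 4.48% and 30.4% of all tested probes were higher at this level. With cyclic loess, the variance trend with robust eBayes or array weights it was 1 of 4, which was miR-466i each time. In these settings 6.82%, 9.55% and 10.1% of all tested probes were higher. The count was also 1 of 4, miR-466i, without LivPGC-1α 2, LivPGC-1α 3, LivPGC-1α 4, WT 3 or WT 5, and 2 of 4, miR-466i and miR-467f, without LivPGC-1α 5 or WT 4. In these fits between 8.58% and 10.5% of all tested probes were higher. In the main fit, the 28 tested probes with an assignment to chromosome 2 included 4 higher at this level. That is 14.3% of them, beside 10.5% of all tested probes, with 20 of 28 above 0 and a median of 0.022. Brightness moves with this split, since the 4 detected probes assigned to other chromosomes had mean signals between 3622 and 11056. Among chromosome 2 probes detected on all 10 arrays 3 of 16 reached this level, with a median of 0.025. The difference between the 2 sets was not tested. The probes assigned to chromosome 2 alone had 4 of 27 at this level and a median of 0.023.

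Members with a 3p name had a median log2 change of 0.091 over 4 probes, all above 0, and those with a 5p name −0.029 over 6 probes, 2 of them above 0. Of the 6 probes with a 5p name, 3 were detected on 1 or 2 arrays only (miR-466c-5p, miR-466d-5p and miR-466e-5p). The difference between the arms was not tested. miR-466l, known in mouse macrophages for stabilising interleukin-10 mRNA, had the largest negative difference among members detected on all arrays. It read 1551, 1544, 1355, 1394 and 1478 in LivPGC-1α and 1499.6, 1676, 1438, 1744 and 1465 in WT (log2 change −0.09 ± 0.07 SE, limma, adjusted p = 0.573). Its unadjusted p was below 0.05 with cyclic loess, where it differed by −0.12, and with the 75th percentile of the probes detected on all arrays, where it differed by −0.19, and it is named for this after its values were seen. Under the same 2 scalings miR-466f-5p was lower by this measure too, with −0.083 and −0.14. miR-466h, whose overexpression is known to promote apoptosis in cultured hamster cells, differed by 0.01.

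In miR-669 no member was at an unadjusted p under 0.05. The smallest p was that of miR-669c, a miRNA described as raised in the ageing mouse liver. It read 1381, 1333, 1526, 1191 and 1394 in LivPGC-1α and 1317, 1248, 1105, 1308 and 1169 in WT, with overlap (log2 change 0.15 ± 0.07 SE, limma, adjusted p = 0.382). The other 9 tested miR-669 probes ranged from −0.26 for miR-669i to 0.10 for miR-669f. miR-669i was detected on WT 5 alone, and without that array its change was −0.049. miR-669a, which in the mouse is known to hold back skeletal muscle differentiation of cardiac progenitors, was detected on 2 WT arrays and no LivPGC-1α array, with a mean of 991 in LivPGC-1α and 981 in WT.

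Some members passed the detection limit in WT only. In 8 members, miR-466c-5p, miR-466d-5p, miR-466e-5p, miR-467b, miR-669a, miR-669h-3p, miR-669i and miR-669k, no LivPGC-1α array and 1 or 2 WT arrays passed the detection limit. That limit, as the smallest signal of a detected probe, ran from 1035 to 1164 over the LivPGC-1α arrays and from 947.5 to 1217.9 over the WT arrays, and was lowest on WT 2 and WT 3. Over all probes of the chip, WT arrays also had more detected probes, 459.6 ± 23.9 (SD, n = 5) against 442 ± 10.3 (SD, n = 5) in LivPGC-1α. The share of all probes detected in WT only was not counted, so the 8 are not read as a result about the family. With LivPGC-1α set to its limit, the ratio of WT to LivPGC-1α was under 1 for each of the 8, and no lower bound of a fold is given.

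**Figure D4:**
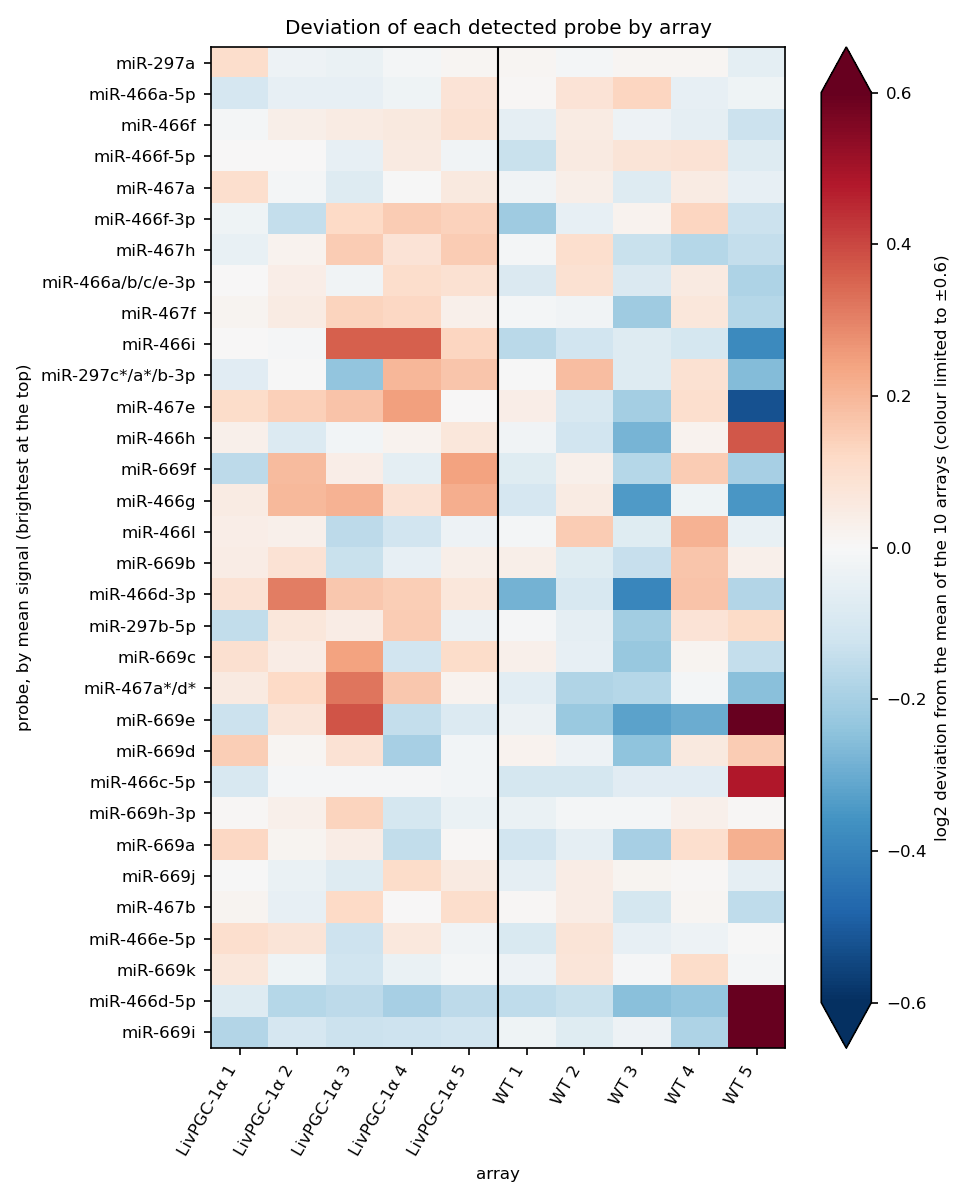
Log2 deviation of each detected probe (rows, brightest at the top) from its mean over the 10 arrays (columns, LivPGC-1α left of the black line, WT right of it). The WT 3 column is mostly below 0, and the WT 5 column is below 0 for most bright probes and far above it for miR-669e, miR-466c-5p, miR-466d-5p and miR-669i.

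The pattern over arrays was uneven within WT. Over the 20 members detected on all 10 arrays, the mean log2 deviation from each probe's own mean was between 0.0093 and 0.074 on the LivPGC-1α arrays. On WT 1 to WT 5 it was −0.054, 0.0083, −0.13, 0.052 and −0.11. WT 2 and WT 4 thus lay within or close to the range of the LivPGC-1α arrays, and WT 3 and WT 5 well below it. For 15 of the 20 the lowest of all 10 arrays was WT 3 or WT 5, and for 14 the highest was a LivPGC-1α array. Members detected on some arrays only were mixed on WT 5. That array was the highest of all 10 for miR-466c-5p, miR-466d-5p, miR-669a, miR-669e and miR-669i. It was the lowest for miR-467b and the miR-467a*/miR-467d* probe. miR-466d-5p was at 2121 there and between 621 and 673.2 on the other WT arrays, and miR-669i at 1338 there and between 606 and 677 on the others. On WT 5 the SD of the members around their group means was 0.36, against 0.072 to 0.12 on LivPGC-1α arrays and 0.092 to 0.15 on the other WT arrays. Taken across the chip, this SD reached 0.367 for WT 5, 0.368 for WT 1 and 0.33 for WT 3. For WT 2 and WT 4 it was 0.17 and 0.16, and LivPGC-1α arrays had 0.11 to 0.18. The wide spread of WT 5 was thus not confined to the family. WT 5 also had the fewest detected probes of all arrays, 423, and the highest detection limit.

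WT 3 and WT 5 were also both left out, which was decided once their values were known. At an unadjusted p under 0.05, 3 of 32 members were then higher and 1 was lower, where 7.02% of all tested probes were higher. The higher members were miR-466g (0.18), miR-466i (0.30) and the miR-467a*/miR-467d* probe (0.22), and the lower one was miR-466l. Without WT 1, WT 3 and WT 5, the miR-467a*/miR-467d* probe (0.24) remained as the higher one and miR-466l as the lower one. In that fit 5.07% of all tested probes were higher at this level. Leaving out single arrays, miR-466d-3p, miR-466g, miR-466i and the miR-467a*/miR-467d* probe kept an unadjusted p under 0.05 in each of the 10 cases, while the count of members at this level fell as low as 4. Over these 10 fits, between 8.58% and 12.1% of all tested probes were higher at this level. When chip position entered as a linear term, the count was 2, the miR-467a*/miR-467d* probe (0.33) and miR-467e (0.53), neither of which passed adjustment (limma, adjusted p = 0.696 for both). With that term 4.48% of all tested probes were higher at this level. WT held the first 5 positions and LivPGC-1α the last 5, so the term overlaps strongly with genotype and this fit cannot separate them.

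**Figure D5:**
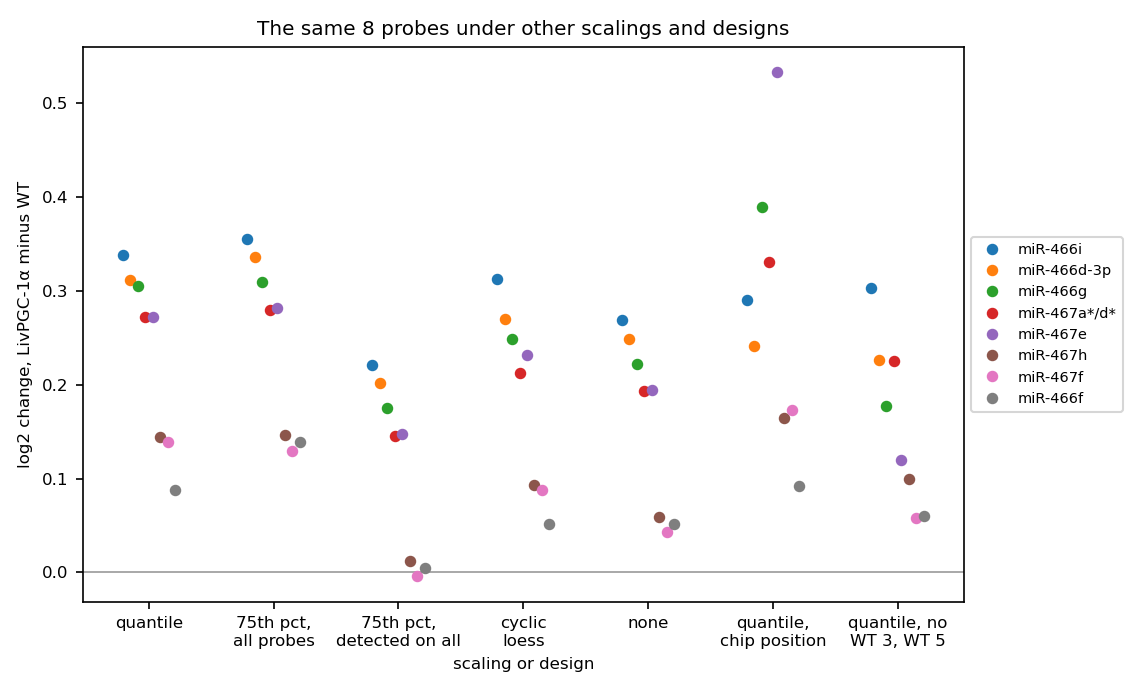
Log2 change, LivPGC-1α minus WT (y axis), of the 8 probes under quantile normalization, 4 other scalings, a linear term for chip position, and quantile normalization without WT 3 and WT 5 (x axis). miR-466i, miR-466d-3p, miR-466g, miR-467a*/d* and miR-467e stay above 0.1 throughout, and miR-466f, miR-467f and miR-467h come within 0.02 of 0 when arrays are scaled to the 75th percentile of the probes detected on all arrays.

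Other sets of probes on the chip give the setting of these counts. Of 100 other tested probes with the most similar mean signal, 10 were higher and 4 lower at an unadjusted p under 0.05, and their median log2 change was 0.014. Star-strand probes outside the family had 9 of 87 higher and 3 lower, with a median of 0.017. The miR-290 to miR-295 cluster, like the Sfmbt2 cluster known from embryonic stem cells and trophoblast, had 0 of 10 tested probes at this level, and its median was 0.036. The Dlk1-Dio3 cluster, a large imprinted miRNA cluster of chromosome 12, had 2 of 47 higher and 9 lower, with a median of −0.091. Differences between these sets and the family were not tested.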

How the data were processed

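Total liver RNA was hybridised by the authors to Illumina Universal BeadChips with the miRNA profiling kit and read on an iScan. Genome Studio gave a mean signal intensity per probe, which the authors deposited without background subtraction or scaling, beside a detection p-value against each array's negative controls. A second deposited table holds the authors' quantile-normalized intensity. Aligners and genome builds are not given in the sources used here. The intensities were quantile-normalized over 655 probes and log2-transformed with no offset (values below 1 raised to 1). Testing was limited to the 513 probes with a detection p of 0.01 or less on 1 array or more. The genotypes were compared in limma 3.58.1 under R 4.3.3 (lmFit, eBayes, no covariate), with Benjamini-Hochberg adjustment over the tested probes. The number of arrays limits the precision, and the median standard error was 0.0688 for the members. Members were named when their unadjusted p was under 0.05, when they had the smallest p or the highest or lowest mean signal of their hairpin number, or when their probe held several names. Others were named after their values were seen. Members and lists were chosen with earlier results of these data known. The fit was tested on simulated data. Alternatives covered scaling, background, detection filter, design, variance model, membership and left-out arrays. Names of miRNAs follow the array annotation, and sequences and hairpin positions came from RefSeq tables of GRCm38.p6, with no coordinates taken from the files.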

Additional observations from a re-analysis of the deposited data

Results flagged for a closer look

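Within a genotype, 68 sets of 5 values were checked, each tested member in each genotype and the number of detected members and their median deviation per array. In 6 of them 1 array lay apart from its neighbour by more than 0.71 of the group's range, where a rate of 1 in 20 would give about 3.4. WT 5 accounted for 5 of the 6. On that array miR-466c-5p had a normalized signal of 1407, with the other WT arrays between 936 and 962, and miR-466d-5p one of 2121, with the others between 621 and 673.2. There miR-669e was at 2089, with the others between 976 and 1191, and miR-669i at 1338, with the others between 606 and 677. miR-466i was low on WT 5, at 2744 against 3198 to 3390.2 on the other WT arrays. On LivPGC-1α 1, miR-466c-5p was low, at 942 against 995 to 1003 on the other LivPGC-1α arrays, below the detection limit on all of them.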

How the results depend on the processing

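The member count at an unadjusted p under 0.05 was 8 and the median log2 change 0.029 under the main setting, with 2 probes called over all tested probes and 0 members called. Over the 10 fits without 1 replicate the member count ranged from 4 to 9, the median from 0.018 to 0.057 and the called probes from 0 to 4 (0 without LivPGC-1α 1, WT 2 or WT 5), with 0 members called in each. Scaling to the 75th percentile of all probes gave 80 called probes and 5 called members, miR-297a (0.13, adjusted p = 0.0405), miR-466d-3p (0.34), miR-466f (0.14), miR-466g (0.31) and the miR-467a*/miR-467d* probe (0.28). Scaling to the 75th percentile of the probes detected on all arrays gave 4 members and a median of −0.070, and the change of miR-467f turned to −0.0042. With cyclic loess the median was −0.0032 and 1 probe was called, and without normalization the median was −0.023, with 3 members and 1 called probe. The median of all tested probes was 0.075, −0.059, −0.014 and −0.011 under these 4 scalings. In the same order, 32.7%, 18.9%, 15.2% and 6.63% of all tested probes were at an unadjusted p under 0.05. With detection required on all arrays of a group the median was 0.088 over 22 members. The member count was 2 with a linear term for chip position (0 probes called), where 7.02% of all tested probes were at an unadjusted p under 0.05. It was 5 with a variance trend and robust eBayes (1 called) and 5 with array weights, beside 13.5% and 14.4% of all tested probes. Without WT 1, WT 3 and WT 5 it was 2, beside 10.5% of all tested probes. Without WT 3 and WT 5 it was 4, beside 12.1%, with 0 probes called in both. Of the probes assigned to chromosome 2 alone it was 4. The labels do not say whether samples of the same number shared more than that number, and 5 pairs cannot decide it. The correlation of their deviations lay between −0.367 and 0.326 over the 5 pairs, and 1 of 5 WT arrays correlated best with its own number. With the replicate number as a block (replicate block), 5 members were at an unadjusted p under 0.05, beside 11.5% of all tested probes. In that fit 0 probes were called. The cause of these shifts was not tested. Probes near the detection limit carry the weakest information on level, and 12 of the 32 tested members were detected on some arrays only.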
